A study of Mus musculus with 6 samples.

Results

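The genes described here are the detected solute carriers, the membrane transporters named Slc, of C5aR+ LysoDCs. A probe was included when its accession named a gene with a symbol that begins with Slc and its spot was well above background, by the scanner software's own flag, on at least 3 of the 6 arrays, with Slc2a1 and Slc40a1 left out. This gave 45 probes of 42 genes, from 593 probes of 390 such genes on the array and from 56605 probes in all. The choice used detection on these same arrays and was made with earlier results of these data known, so the detection counts are a description without a test.

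After enrichment on CD11c beads, the cells were sorted from Peyer's patches, the lymphoid tissue of the mouse small intestine, where LysoDCs are lysozyme-expressing phagocytes and C5aR+ marks those with the receptor for complement fragment C5a. In the C5a group, 3 samples received 100 nM recombinant C5a for 3 h. The untreated group held 3 samples that received 0 nM, whose time in culture the labels do not give. All were cultured with CSF-1 and a factor the labels spell CFS-2, and RNA of each was hybridised to 1 single-colour Agilent array. The labels give no strain, sex or age of the mice and do not say whether samples came from separate animals, so p-values measure only the spread between these samples, which may be technical.

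Solute carriers move amino acids, sugars, ions, metals, vitamins and metabolic intermediates across the plasma membrane and the membranes of organelles, by facilitated diffusion, exchange or coupling to an ion gradient. In phagocytes they supply arginine and cystine for nitric oxide and glutathione synthesis, export lactate, set the pH of the cytosol and strip metals and peptides from the phagolysosome. The series concerns C5a signalling in these cells, and the comparison below asks which transporter genes differed with C5a.

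Levels below are log2 processed signal after subtraction, array by array, of the 75th percentile of the probes that all 6 arrays detected. They compare samples within a probe, and no probe's level is set against another's, since probes differ in how they hybridise. Differences are C5a minus untreated on the same log2 scale, with n = 3 per group. In sorted cells measured in bulk, fewer cells of a type and less RNA per cell cannot be told apart.

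The arrays differed in brightness. The 75th percentile of the detected probes' signal ran from 154 to 377 on the C5a arrays and from 109 to 460 on the untreated arrays. Of 19 fixed markers of mononuclear phagocytes, 13 were well above background on at least 3 arrays, among them Lyz1, Itgax, Csf1r, H2-Ab1 and Cd74, while Cx3cr1, Mertk, Cd209a, Zbtb46, Flt3 and Cd4 were so on 0 arrays. Among the markers of other cells, 0 of 6 for T cells, 0 of 8 for epithelium and 0 of 6 for neutrophils met this mark, against Cd79b alone of 6 for B cells, Vim alone of 7 for stroma and endothelium, and Xbp1 and Prdm1 of 5 for plasma cells.

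More Slc probes were detected on brighter arrays. Of the 45 probes, 44, 44 and 28 were well above background on C5a 1, 2 and 3, and 31, 45 and 21 on untreated 1, 2 and 3. The highest counts were on the 3 brightest arrays, C5a 1, C5a 2 and untreated 2, and the lowest on untreated 3, the dimmest. Just inside the limit, 12 probes were well above background on exactly 3 arrays, and for 10 of them these were C5a 1, C5a 2 and untreated 2. Just outside it, 17 probes were so on exactly 2 arrays, and for 14 of them these were C5a 2 and untreated 2. Slc7a7 and the second probe of Slc25a3 (A_51_P269652) were among those just inside, with mean log2 levels of -3.36 and -3.31. Slc29a3, an equilibrative nucleoside transporter, and Slc1a5, a glutamine carrier, were among those just outside, with mean log2 levels of -3.70 and -4.09.

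**Figure D1:**
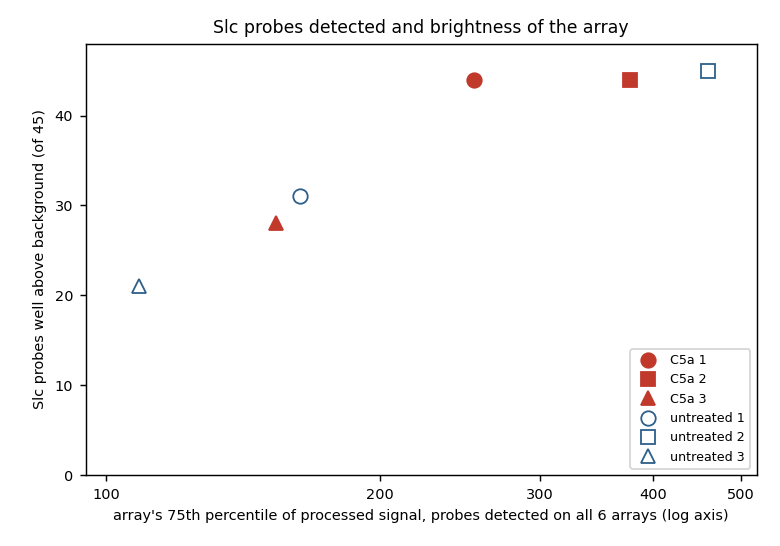
Number of the 45 Slc probes well above background on each array (vertical axis) against the brightness of the array, its 75th percentile of signal among the probes that all 6 arrays detected (horizontal log axis). C5a arrays are filled and untreated arrays open, and the symbol shape gives the replicate number. The counts run from 21 on untreated 3 to 45 on untreated 2.

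The detected genes, here those well above background on at least 3 arrays, covered 8 classes of carriers, grouped by family number. Amino acid and peptide carriers had 12 genes detected of 71 on the array (16.9%), mitochondrial carriers 8 of 47 and metal transporters 5 of 32 (15.6%). Golgi and endoplasmic reticulum carriers had 4 of 31 (12.9%), inorganic ion carriers 5 of 57 (8.77%) and carriers of monocarboxylates, choline and organic ions 5 of 79 (6.33%). A single gene was detected of 30 in the sugar, inositol and sodium-coupled class and of 13 in the vesicular and lysosomal class. No gene was detected among 6 fatty acid, 8 nucleoside or 13 vitamin carriers. Over the 390 Slc genes together the share was 10.8%, and over all 22907 named genes on the array it was 14.3%. Of the nucleoside carriers 1 gene, and of the vitamin carriers 2 genes, were well above background on at least 1 array without reaching the limit, so a class with no gene counted is not shown to be absent. Of the 390 genes, 316 were well above background on 0 arrays.

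Of the 42 genes, 17 were well above background on all 6 arrays, among them the amino acid carriers Slc3a2, Slc1a4, Slc38a1, Slc7a8, Slc7a11, Slc15a3 and Slc15a4. One of the 42 genes, Slc9a3r1, bears the symbol without being a carrier, since it encodes a scaffold protein of the cell cortex. No gene was well above background on all arrays of one group and on none of the other. Of the 42 genes, 18 were so on more C5a than untreated arrays, 3 on fewer and 21 on equally many. Over all 4488 genes tested, 38.1% were so on more C5a arrays and 4.32% on fewer. Of these 4488, 3275 had a gene symbol, and the rest were unnamed probes, each counted as a gene here and in all shares below.

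**Figure D2:**
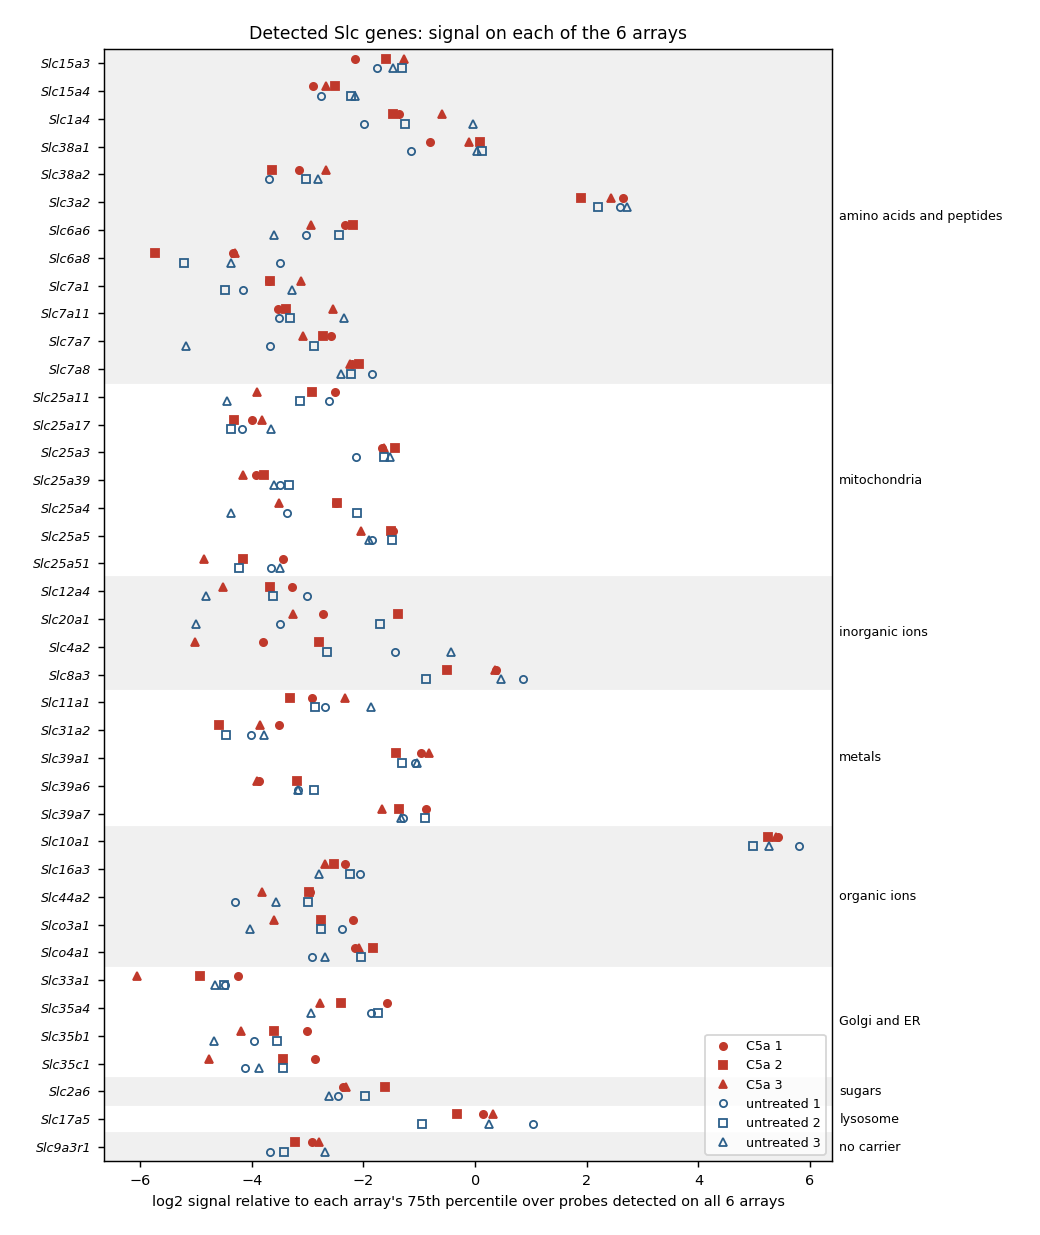
Level of 40 of the 42 Slc genes on the 6 arrays (horizontal axis, log2 signal relative to the array's 75th percentile), with genes down the page grouped by transport class. C5a samples are filled and lie above the open untreated samples of the same gene, and the shape gives the replicate number. The 2 groups overlap for 37 of the 40 genes drawn.

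The largest class, amino acid carriers, held both chains of several heteromeric transporters. Slc3a2 encodes the heavy chain CD98, which pairs by a disulphide bond with light chains that do the transport. Slc7a11 encodes the light chain that exchanges cystine for glutamate, Slc7a7 the one that exchanges cationic for neutral amino acids, and Slc7a8 one for neutral amino acids. Slc3a2, Slc7a7 and Slc7a11 are shown by the 250 bases before their transcription start, because the amino acid response element by which starved cells raise transporter genes is known from such promoters. Capitals mark each match to the letters TGATGNAA, searched on both strands. The sequences are those of RefSeq (build GRCm38.p6), all on the minus strand and written 5′ to 3′ along the gene. The Slc3a2 window (chr19:8713898-8714147), the first Slc7a7 window (chr14:54417945-54418194), the second Slc7a7 window (chr14:54417703-54417952) and the Slc7a11 window (chr3:50443614-50443863) read as follows.
Slc3a2: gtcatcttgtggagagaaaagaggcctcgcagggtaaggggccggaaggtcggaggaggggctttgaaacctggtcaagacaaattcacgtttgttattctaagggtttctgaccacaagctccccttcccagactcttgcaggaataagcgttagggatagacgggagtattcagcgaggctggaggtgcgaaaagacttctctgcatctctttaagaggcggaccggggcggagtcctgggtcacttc
Slc7a7, first start: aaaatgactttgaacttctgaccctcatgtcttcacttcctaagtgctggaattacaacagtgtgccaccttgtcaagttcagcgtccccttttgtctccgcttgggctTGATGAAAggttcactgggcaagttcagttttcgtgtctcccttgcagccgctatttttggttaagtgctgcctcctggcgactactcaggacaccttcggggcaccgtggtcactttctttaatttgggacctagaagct
Slc7a7, second start: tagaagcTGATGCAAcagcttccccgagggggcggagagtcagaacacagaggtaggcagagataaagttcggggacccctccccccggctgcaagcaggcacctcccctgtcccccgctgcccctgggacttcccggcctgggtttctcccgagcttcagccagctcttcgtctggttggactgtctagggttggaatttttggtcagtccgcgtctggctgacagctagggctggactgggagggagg
Slc7a11: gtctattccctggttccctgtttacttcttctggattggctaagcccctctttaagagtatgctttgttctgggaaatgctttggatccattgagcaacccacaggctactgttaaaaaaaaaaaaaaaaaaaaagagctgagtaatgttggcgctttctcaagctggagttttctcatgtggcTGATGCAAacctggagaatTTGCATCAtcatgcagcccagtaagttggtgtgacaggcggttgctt
Slc7a11 had 2 matches, which begin 66 and 47 bases before the start and lie on opposite strands. Slc7a7 had 1 match in each of 2 of its windows, beginning 141 and 243 bases before the start. In Slc3a2 these letters are not in the window. Slc7a7 and Slc7a11 were the 2 of the 32 genes with a promoter window that held the letters, in 3 of 43 windows (6.98%), where 3.45% of all 32851 windows of this length held them.

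Promoter windows were found for 32 of the 42 genes (43 windows, since a gene can have several starts). Their median content of G and C was 60.8%, against 52.4% over all windows, and their median number of CG pairs was 14, against 6. The letters GGGCGG, known as the GC box, were in 24 of 43 windows (55.8%) and in 32.7% of all windows, and TATAAA was in 2 of 43 (4.65%) and in 12.4% of all. The antioxidant response core TGACNNNGC was in 7 of 43 (16.3%) and 10.2% of all, and CACGTG, the E-box, in 2 of 43 (4.65%) and 6.02% of all. Each motif was searched on both strands. Matches of different motifs were counted separately, also where they overlap, and a match is a run of letters, not a site that was measured. The 42 genes were chosen by detection, while the windows of all genes were not. Windows of other detected genes were not compared, so these shares are not shown to be particular to Slc genes.

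Slc3a2, Slc7a11 and Slc7a8 each differed between the groups by less than 1 SE. Slc3a2 had log2 levels of 2.64, 1.90 and 2.43 in C5a samples, against 2.59, 2.21 and 2.72 in untreated samples (probe A_55_P2893745). Its second probe, A_51_P472901, had -0.45, -0.06 and 0.04 in C5a samples, against -0.15, -0.11 and 0.15 in untreated samples. The groups overlapped on both probes, and the differences were -0.18 (SE 0.31, 95% interval -0.91 to 0.55) and -0.12 (SE 0.27). Slc7a11 had -3.54, -3.39 and -2.54 in C5a samples, against -3.51, -3.32 and -2.34 in untreated samples, a difference of -0.10 (95% interval -1.11 to 0.91). Number 3 was the highest in both groups for this gene, and the groups overlapped. Slc7a8 had -2.20, -2.08 and -2.23 in C5a samples, against -1.84, -2.23 and -2.41 in untreated samples, and its interval was -0.65 to 0.62.

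Slc7a7 had the largest positive difference of all 42 genes. Its log2 level was -2.59, -2.72 and -3.09 in C5a samples, against -3.67, -2.88 and -5.18 in untreated samples, on arrays of which 2 and 1 were well above background. The C5a samples lay close together, and the untreated ones spread over more than 2 log2 units, with C5a 3 below untreated 2. The difference was 1.11 (SE 0.57, 95% interval -0.23 to 2.45, limma unadjusted p = 0.0905) and did not pass. It was 0.48 without untreated 3 and 0.32 with normexp background correction and quantile normalization together. The other carrier of cationic amino acids, Slc7a1, which takes up arginine, had -3.70, -3.68 and -3.13 in C5a samples, against -4.15, -4.48 and -3.28 in untreated samples, a difference of 0.47 (95% interval -0.43 to 1.37). Every number was higher with C5a for both genes, by 1.08, 0.16 and 2.10 for Slc7a7 and by 0.45, 0.80 and 0.16 for Slc7a1.

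Sodium-coupled carriers gave mixed values. Slc6a6, the taurine transporter, had -2.32, -2.19 and -2.94 in C5a samples, against -3.03, -2.44 and -3.60 in untreated samples, a difference of 0.54 (95% interval -0.37 to 1.44). Slc6a8, the creatine transporter, had -4.33, -5.74 and -4.31 in C5a samples, against -3.50, -5.22 and -4.38 in untreated samples, a difference of -0.43 (95% interval -1.76 to 0.90). The groups overlapped for both. The groups also overlapped for the glutamine carriers of the Slc38 family. Slc38a1 had -0.81, 0.09 and -0.11 in C5a samples, against -1.15, 0.13 and 0.04 in untreated samples, and its second probe differed by 0.32 (SE 0.55) where the first differed by 0.05 (SE 0.44). Slc38a2, which amino acid starvation induces, differed by 0.03 (SE 0.37). Slc1a4, an exchanger of serine and alanine, had -1.37, -1.47 and -0.60 in C5a samples, against -1.99, -1.26 and -0.04 in untreated samples, with number 3 the highest in each group.

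The 2 proton-coupled carriers of histidine and small peptides, Slc15a3 and Slc15a4, sit in endolysosomes, where Slc15a4 is needed for signalling by nucleic acid sensing Toll-like receptors. Slc15a3 had log2 levels of -2.15, -1.60 and -1.27 in C5a samples, against -1.76, -1.32 and -1.47 in untreated samples. Slc15a4 had -2.90, -2.50 and -2.67 in C5a samples, against -2.76, -2.22 and -2.15 in untreated samples. The groups overlapped for both genes, and the differences were -0.16 (SE 0.32) and -0.31 (SE 0.29). In Slc17a5, the lysosomal exporter of sialic acid, the values were 0.14, -0.32 and 0.33 in C5a samples, against 1.04, -0.96 and 0.25 in untreated samples. Slc2a6, a hexose carrier known from lysosomes of macrophages, had -2.37, -1.62 and -2.31 in C5a samples, against -2.46, -1.97 and -2.63 in untreated samples, a difference of 0.25 (95% interval -0.53 to 1.03).

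Of the mitochondrial carriers, those of energy exchange come first. Slc25a4 and Slc25a5 swap ADP for ATP across the inner membrane, and Slc25a3 brings in phosphate. Slc25a5 had -1.47, -1.51 and -2.04 in C5a samples, against -1.85, -1.49 and -1.89 in untreated samples. Slc25a3 had -1.67, -1.44 and -1.63 in C5a samples, against -2.13, -1.64 and -1.52 in untreated samples. Both were well above background on all 6 arrays, both groups overlapped, and the intervals of the difference were -0.61 to 0.75 and -0.47 to 0.84. The second probe of Slc25a3 differed by 0.04 (SE 0.49), against 0.18 (SE 0.28) for the first. Slc25a4 spread more, at -2.50, -2.47 and -3.51 in C5a samples, against -3.37, -2.12 and -4.37 in untreated samples.

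Among the other mitochondrial carriers the groups of one gene did not overlap. Slc25a39, which carries glutathione into mitochondria, had -3.93, -3.79 and -4.16 in C5a samples, against -3.49, -3.34 and -3.60 in untreated samples. All C5a samples were lower than all untreated samples, by a difference of -0.48 (SE 0.25, 95% interval -1.08 to 0.12, limma unadjusted p = 0.100), which did not pass, and the probe was well above background on 2 C5a arrays and 1 untreated array. Slc25a11, an exchanger of oxoglutarate for malate, Slc25a17, a carrier of the peroxisome, and Slc25a51, which imports NAD, differed by 0.29, 0.02 and -0.35 (SEs 0.56, 0.31 and 0.42).

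Carriers of inorganic ions held the largest difference in either direction. Slc4a2, which exchanges chloride for bicarbonate, had log2 levels of -3.80, -2.79 and -5.02 in C5a samples, against -1.43, -2.66 and -0.42 in untreated samples. All C5a samples lay below all untreated samples. Yet C5a 2 and untreated 2, the brightest arrays, were only 0.13 apart, where number 3 differed by -4.59. The probe was well above background on 2 C5a arrays, not on C5a 3, and on 3 untreated arrays. Its processed signal was 4.75 on C5a 3, against 81.0 on untreated 3. The difference was -2.37 (SE 0.72, 95% interval -4.07 to -0.66, limma unadjusted p = 0.0133) and did not pass (adjusted p = 0.9992). It was -0.97 with normexp background correction and quantile normalization together, -2.38 with quantile normalization alone and -1.25 without both arrays of number 3. Within row 1 of the slide, which held C5a 1 and the 3 untreated arrays, it was -2.30.

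Slc20a1, a sodium-coupled importer of phosphate, had -2.73, -1.38 and -3.25 in C5a samples, against -3.50, -1.71 and -5.01 in untreated samples. The groups overlapped, number 2 was the highest in each, and every number was higher with C5a, by 0.78, 0.33 and 1.75. The difference was 0.95 (SE 0.86, 95% interval -1.07 to 2.98) and did not pass. It was 0.15 without untreated 3 and 1.80 without untreated 2, and 0.38 with normexp and quantile together. Slc12a4, a potassium and chloride cotransporter, had -3.28, -3.68 and -4.51 in C5a samples, against -3, -3.62 and -4.81 in untreated samples. The sample of number 3 was the lowest of each group, and the difference was -0.01 (SE 0.54). Slc8a3, a sodium/calcium exchanger known from muscle and brain, had 0.37, -0.50 and 0.35 in C5a samples, against 0.86, -0.89 and 0.47 in untreated samples.

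Metal transporters detected were those of iron or manganese, copper and zinc. Slc11a1, also called NRAMP1, pumps divalent metals out of the phagosome and is known as a resistance gene against intracellular microbes. Its log2 level was -2.92, -3.31 and -2.32 in C5a samples, against -2.68, -2.86 and -1.86 in untreated samples. Each number was lower with C5a (differences of -0.24, -0.45 and -0.46), while the groups overlapped and the interval of the difference was -1.31 to 0.54. The zinc importers Slc39a1 and Slc39a7, the second of which releases zinc from the endoplasmic reticulum, differed by 0.07 (SE 0.28) and -0.13 (SE 0.31). Slc39a6, another zinc importer, had -3.86, -3.19 and -3.90 in C5a samples, against -3.17, -2.89 and -3.18 in untreated samples. All its C5a samples were lower than all its untreated samples (difference -0.57, SE 0.30, 95% interval -1.28 to 0.14, limma unadjusted p = 0.0983), without passing. Its probe was well above background on 2 C5a arrays and 2 untreated arrays. Slc31a2, a copper transporter, differed by 0.10 (SE 0.37).

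Of the carriers of organic ions, Slc16a3 exports lactate from glycolytic cells. It had -2.33, -2.53 and -2.69 in C5a samples, against -2.06, -2.23 and -2.80 in untreated samples, a difference of -0.15 (95% interval -0.86 to 0.55). Slco4a1, an organic anion transporter that carries thyroid hormone, had -2.15, -1.83 and -2.07 in C5a samples, against -2.93, -2.05 and -2.68 in untreated samples. C5a 1 and C5a 3 lay within the range of the untreated samples and C5a 2 above it, every number was higher with C5a (by 0.79, 0.22 and 0.61), and the difference was 0.54 (SE 0.32, 95% interval -0.20 to 1.28). Slco3a1, a carrier of prostaglandins, differed by 0.21 (SE 0.54) and Slc44a2, a choline transporter-like protein, by 0.37 (SE 0.43).

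Slc10a1, the bile acid importer of hepatocytes, was well above background on all 6 arrays with its probe A_55_P1954987, at 5.42, 5.25 and 5.39 in C5a samples, against 5.80, 4.97 and 5.27 in untreated samples. The array's other Slc10a1 probe, A_66_P133814, was well above background on 0 arrays, at levels between -7.18 and -5.91 in C5a samples and between -7.59 and -5.21 in untreated samples. Of 12 hepatocyte genes, a list made after these values were seen, the 11 on the array, among them Alb, Apoa1, Ttr and Cps1, were well above background on 0 arrays. Which RNA the first probe bound was not tested.

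Such disagreement between probes was found in many of the Slc genes. Of the 42 genes, 25 had more than 1 probe on the array, and in 22 of these 1 probe alone met the limit. Over all the genes with more than 1 probe, 25 probes did not meet the limit. Of these probes, 19, from 18 genes, were well above background on 0 arrays. Slc17a5 and Slc8a3 were of this kind, and so were Slc7a8, Slc20a1 and Slc25a39. On the whole array, 48672 of 56605 probes were well above background on 0 arrays, so dark probes are not particular to Slc genes. The second probes of other detected genes were not counted. For the 3 genes with 2 detected probes, Slc3a2, Slc25a3 and Slc38a1, both detected probes gave a difference of the same sign and neither passed. The remaining probe of Slc38a1, A_66_P102970, was well above background on 0 arrays.

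Carriers of the secretory pathway were detected in 4 genes, none beyond the spread between samples. Slc35b1, which exchanges ATP for ADP across the endoplasmic reticulum membrane, had -3.02, -3.60 and -4.20 in C5a samples, against -3.96, -3.55 and -4.68 in untreated samples, a difference of 0.46 (95% interval -0.55 to 1.46). Slc33a1, the importer of acetyl-CoA into the endoplasmic reticulum, had -4.25, -4.94 and -6.06 in C5a samples, against -4.49, -4.51 and -4.66 in untreated samples. Its untreated samples lay close together, C5a 1 above them and the other C5a samples below, and the difference was -0.53 (SE 0.46). Slc35c1, which brings GDP-fucose into the Golgi, and Slc35a4, of the nucleotide sugar transporter family, differed by 0.13 (SE 0.50) and -0.07 (SE 0.45). The scaffold gene Slc9a3r1 differed by 0.28 (SE 0.34).

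None of the 42 Slc genes passed for C5a. With limma, and p-values adjusted by Benjamini-Hochberg over the 4488 genes tested, 0 of 42 had an adjusted p under 0.05 (lowest 0.9992), as had 0% of all genes. At an unadjusted p under 0.05 there was 1 Slc gene, Slc4a2, or 2.38%, where 2.34% of all genes had such a p (1.58% on the higher side and 0.758% on the lower). The groups did not overlap for 3 Slc genes (7.14%), Slc4a2, Slc39a6 and Slc25a39, all lower with C5a, where 5.68% of all genes did not overlap, 3.36% on the higher side and 2.32% on the lower. Among the 42 Slc genes in the main fit, positive and negative differences were equally many, 21 each, and 54.9% of the 4488 genes tested had a positive one. The median difference was -0.00095, against 0.037 over all genes. The median SE of the Slc genes was 0.41, so that the 95% interval of a typical carrier reached 0.96 to either side, a 1.94-fold change.

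**Figure D3:**
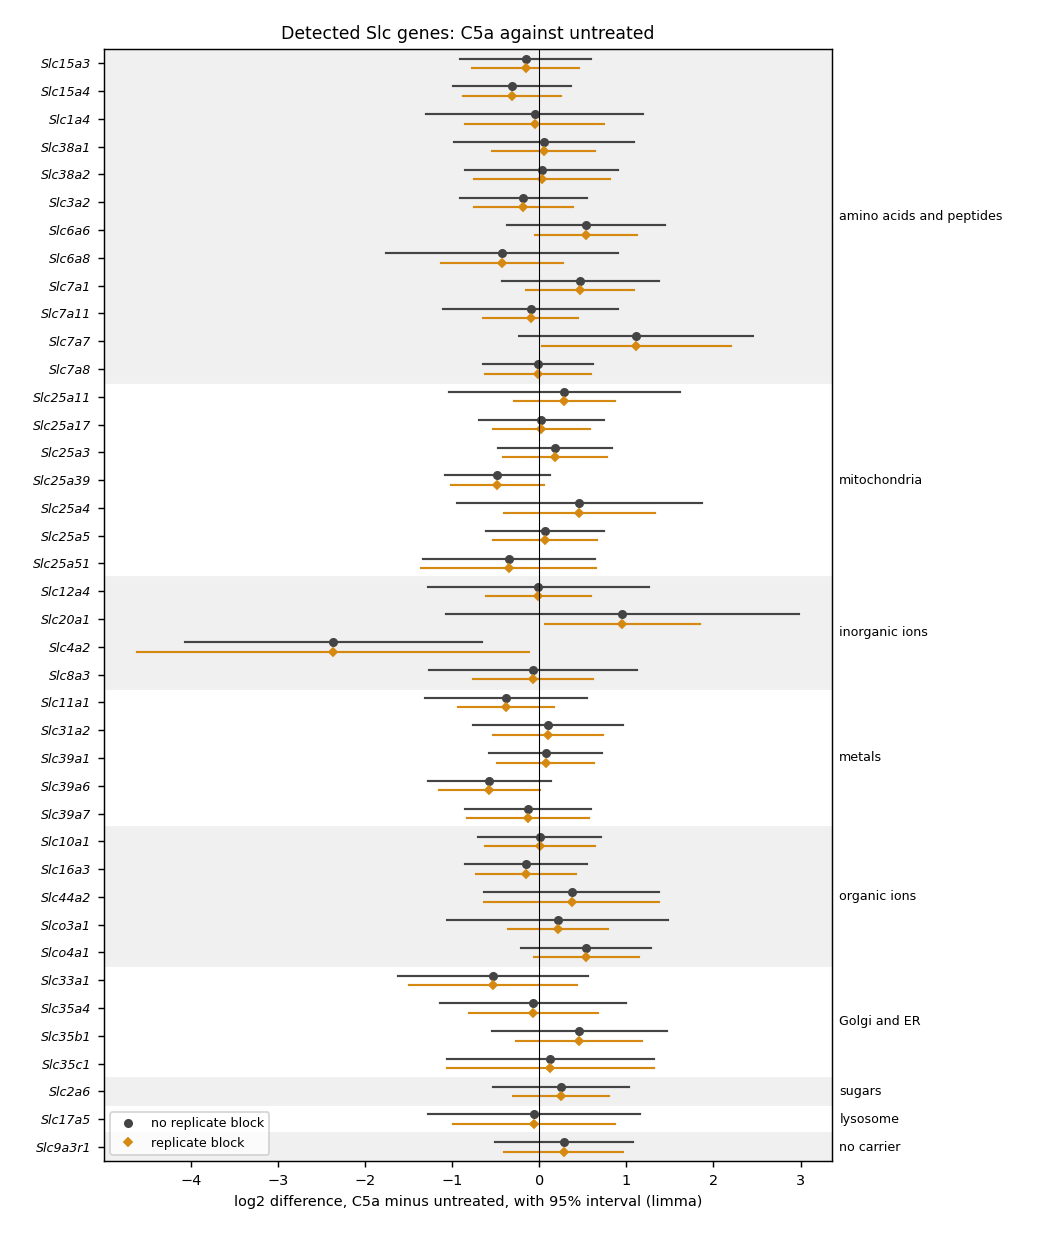
Log2 difference, C5a minus untreated, of 40 of the 42 Slc genes (horizontal axis) with its 95% interval from limma, without the replicate block (circles) and with it (diamonds). The interval of Slc4a2 alone lies to one side of 0 without the block, and those of Slc4a2, Slc7a7 and Slc20a1 do so with it, before adjustment for multiple tests.

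How many Slc genes were higher depended on the scaling. With the 75th percentile taken over all probes, of which 48672 of 56605 were well above background on 0 arrays, 35 of 42 differences were positive (83.3%), as were 86.8% of all genes, and the median of all genes moved to 0.40. The median of the Slc genes was then 0.36. The authors' deposited series table holds the same signal with this same scaling, so its split of 35 of 42 is not a separate result.

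Samples with the same number resembled each other across groups, and setting them against each other narrowed the intervals. With the number as a block in limma, the SE was smaller for 40 of the 42 genes and its median was 0.24, against 0.41 without the block. The 95% interval of a typical carrier then reached 0.62 to either side, a 1.54-fold change. The adjusted p stayed at 0.926 or above, so 0 of 42 passed. Under the block, 3 Slc genes (7.14%) had an unadjusted p under 0.05, where 4.23% of all genes had one. The unadjusted limma p was 0.0400 for Slc20a1 (SE 0.34), 0.0429 for Slc4a2 (SE 0.86) and 0.0465 for Slc7a7 (SE 0.42). All 3 same-number differences had one sign for 13 Slc genes (31%), 7 positive and 6 negative, and for 25.3% of all genes. Slc6a6, Slco4a1, Slc7a1, Slc7a7, Slc20a1, Slc2a6 and Slc25a11 made up the 7.

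**Figure D4:**
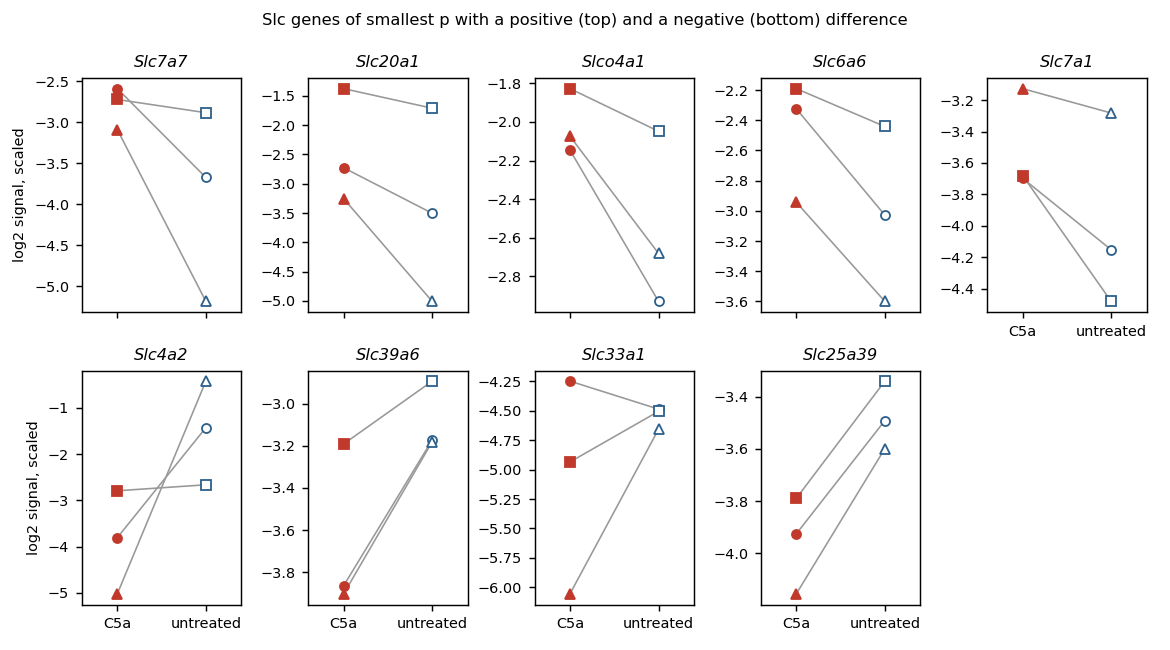
Log2 levels (vertical axis, a scale of its own in each panel) of the 5 Slc genes with the smallest p among positive differences (top) and 4 of those with the smallest p among negative ones (bottom), with C5a samples on the left and untreated samples on the right. Lines join samples of the same number (circle 1, square 2, triangle 3). The 3 lines of each gene in the top row fall to the right, while in the bottom row those of Slc33a1 run in both directions.

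In many carriers both samples of number 3 stood on one side of the other 4 samples. In 10 Slc genes (23.8%) both samples of number 3 were lower than the other 4, as in 19.7% of all genes, and in 7 (16.7%) both were higher, as in 14% of all genes. The lower ones included Slc12a4, Slc25a4, Slc25a11 and Slco3a1, and the higher ones Slc1a4, Slc7a1, Slc7a11, Slc11a1 and Slc38a2. The arrays of number 3 were the dimmest of their groups, with a 75th percentile of 154 in C5a and 109 in untreated samples, and the part of brightness in these values was not tested.

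Other transporters and related membrane proteins, in lists chosen with earlier results known, gave no call either. One list held 34 genes without an Slc symbol, of carriers and other membrane proteins, not all of the same superfamily. Of these, 12 were detected, 5 with a positive and 7 with a negative difference (median -0.02), and 0 passed. Mpc1, a subunit of the mitochondrial pyruvate carrier, was the one whose groups did not overlap, where 5.68% of all genes did not overlap. Mpc1 had -2.93, -2.90 and -3.16 in C5a samples, against -2.88, -2.70 and -2.70 in untreated samples, a difference of -0.24 (SE 0.25). Of 23 ATP-binding cassette transporters, 5 were detected, 2 positive and 3 negative, with Abca7 at -1.27 (SE 0.69) and Abcc1 at -0.55 (SE 0.36). Of 16 P-type pumps, 4 were detected, 2 in each direction, and 0 passed. Among 5 partners of carriers, Emb and Nptn, which escort monocarboxylate transporters to the membrane, differed by -0.07 (SE 0.54) and 0.62 (SE 0.70). In limma with Benjamini-Hochberg adjustment over all genes, 0 of these 23 detected genes passed, and 0 had an unadjusted p under 0.05.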

How the data were processed

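RNA of 6 samples was measured on 1-colour Agilent arrays, all on 1 slide. Per the file headers, the authors read the arrays with Feature Extraction 10.10.1.1, and the deposited intensity is a signal from which background had been subtracted, without scaling between arrays. The values of the series table are log2, as deposited. Of its between-sample differences, 100% lay within 0.015 of those of the log2 scanner signal centred per array on the 75th percentile of all probes, so its scale and direction are known, while the baseline of each probe is not.

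Spots of a probe were averaged as log2 signal, without controls and outlier spots (112 to 138 per array). A probe counted as well above background where at least 0.5 of its spots were flagged so. Accessions, without versions, were named through RefSeq (GRCm38.p6), which matched 32989 of 56605 probes. Values were scaled to the 75th percentile over the 2370 probes detected on all 6 arrays. Of the 4958 probes well above background on at least 3 arrays, the one with the highest mean was kept per gene. Each probe without a gene symbol was kept as a gene of its own. This left 4488 genes, 3275 of them with a symbol. These were fitted with limma 3.58.1 in R 4.3.3, C5a against untreated, with Benjamini-Hochberg adjustment and a threshold of 0.05. The script was checked on simulated data.

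Labels number samples 1 to 3 in each group. Deviations from the group means correlated at 0.21, 0.27 and 0.38 between same-numbered samples over the genes tested, all above 0.1. The number was therefore fitted as a block in an alternative run, while the main fit had no block. The labels do not say that the numbers mark pairs. Arrays of number 2 were the brightest and those of number 3 the dimmest of each group, and the part of brightness in these correlations was not tested. The members, classes and lists were chosen with earlier results of these data known. Genes named were the 5 with the smallest p in each direction, the 3 of highest mean per class, those with several detected probes and those whose groups did not overlap, with others added to complete the classes. A few genes that count in the totals are not reported here by name. The number of arrays and their dimness limit the precision of each value.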

Additional observations from a re-analysis of the deposited data

How the results depend on the processing

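No Slc gene passed the adjusted threshold under any alternative run, including each replicate left out in turn (0 to 0 genes). Over all genes, limma with Benjamini-Hochberg adjustment called 0 to 0 with a replicate left out. Without a filter on dim probes it called 47 of the 46523 genes and unnamed probes then tested, 0 of them among these Slc genes. The replicate block changed no call, with a lowest adjusted p of 0.926 for the Slc genes. Their median difference of -0.00095 was 0.36 with the percentile over all probes and 0.36 in the deposited series table, which has that same scaling. It was 0.18 with the slide row as a covariate, a fit that rests on C5a 1 on the treated side. Without the samples of number 3, the dimmest arrays (chosen after seeing the data), it was -0.0061. The sign of the difference held in every alternative run for 14 of the 42 genes, among them Slc4a2, Slc7a7, Slc20a1, Slc39a6 and Slc25a39, and turned in at least 1 for the other 28. Several runs could not turn a sign. The replicate block, the intensity trend and the changes of filter return the same difference for an Slc gene. None of the genes just named was in the run on probes detected on all 6 arrays. Restricting the test to probes detected on all 6 arrays left 17 Slc genes. The lowest adjusted p of any Slc gene was 0.662, for Slc4a2 without untreated replicate 2.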
